A study of Mus musculus with 20 samples.

Results

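The conjugating and other xenobiotic enzymes of mouse white adipose tissue are described here, namely the glutathione transferases, UDP-glucuronosyltransferases, sulfotransferases, carboxylesterases, flavin monooxygenases, aldehyde dehydrogenases and epoxide hydrolases. The members were all genes of the count tables whose symbol begins with Gsta, Gstk, Gstm, Gsto, Gstp, Gstt, Gstz, Mgst, Sult, Ces, Fmo, Aldh or Ephx and a digit, or with Ugt1a or Ugt2. Aldh6a1, an enzyme of valine breakdown, and symbols with -ps were left out. This gave 116 of 56805 annotated genes. Of these, 105 had at least 1 read, and 91 had enough reads to be tested, out of 21306 genes tested in all.

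The RNA came from 20 mice in 4 groups of 5, with a library per mouse and between 53047057 and 93314761 reads in genes per library. The groups were high-fat feeding with Tibetan tea to drink, high-fat feeding with water, chow with Tibetan tea, and chow with water, each kept up for 10 weeks. Tibetan tea, a fermented dark tea, was given as a water extract. The mice of all groups shared the same housing, and the labels used here give neither strain, sex and age of the mice nor the fat depot. The adipocyte marker list was detected in full in every library, with 0 of its 15 genes at 0 and summed levels between 21710 and 72090 CPM (read counts relative to the library size after scaling).

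Cells clear fat-soluble foreign compounds and their own reactive metabolites in steps. Flavin monooxygenases oxidise nitrogen and sulfur atoms, carboxylesterases split esters, epoxide hydrolases open epoxides and aldehyde dehydrogenases turn aldehydes into acids, and transferases then attach glutathione, glucuronic acid or sulfate so that the product can be exported. Liver, kidney and intestine are the organs best known for these enzymes, but fat stores lipophilic compounds, and several members act there on lipids, retinoids and lipid aldehydes.

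Some libraries held transcripts of other organs that are rich in these enzymes. The pancreas acinus list summed to 656900 CPM in chow water replicate 1, which also had 6147 CPM of the intestine list and 5651 CPM of the liver list, against at most 78.1 CPM of the pancreas list in any other library. The kidney list summed to 25990 CPM in high-fat tea replicate 4, 1935 CPM in chow water replicate 2 and 620.2 CPM in chow tea replicate 3, and the epididymis and seminal vesicle list to 34930 CPM in high-fat water replicate 4, which also had 14060 CPM of the adrenal cortex list. The skeletal muscle list summed to 37600 CPM in high-fat tea replicate 1, 33290 CPM in high-fat water replicate 5, 9309 CPM in high-fat tea replicate 3, and 4843 to 5275 CPM in high-fat water replicate 3, chow tea replicate 1 and chow water replicate 2. Apart from chow tea replicate 3, the libraries named so far are the 9 that were left out together in an alternative fit. That fit kept only high-fat tea 2 and 5, high-fat water 1 and 2, chow water 3, 4 and 5, and chow tea 2, 3, 4 and 5. The kept libraries were not all free of such transcripts. High-fat tea 2 had 831.9 CPM of the adrenal cortex list and 245.2 CPM of the liver list, against high-fat tea medians of 229.5 and 76.7 CPM. A call that ended there can also have ended because fewer mice were compared. These lists of 9 to 15 genes share no gene with the members. Of the 91 tested members, 31 had their highest level in high-fat tea replicate 4 and 21 in chow water replicate 1. In 16 and 11 of them, that library alone held over 50% of the gene's summed CPM of all 20.

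**Figure D1:**
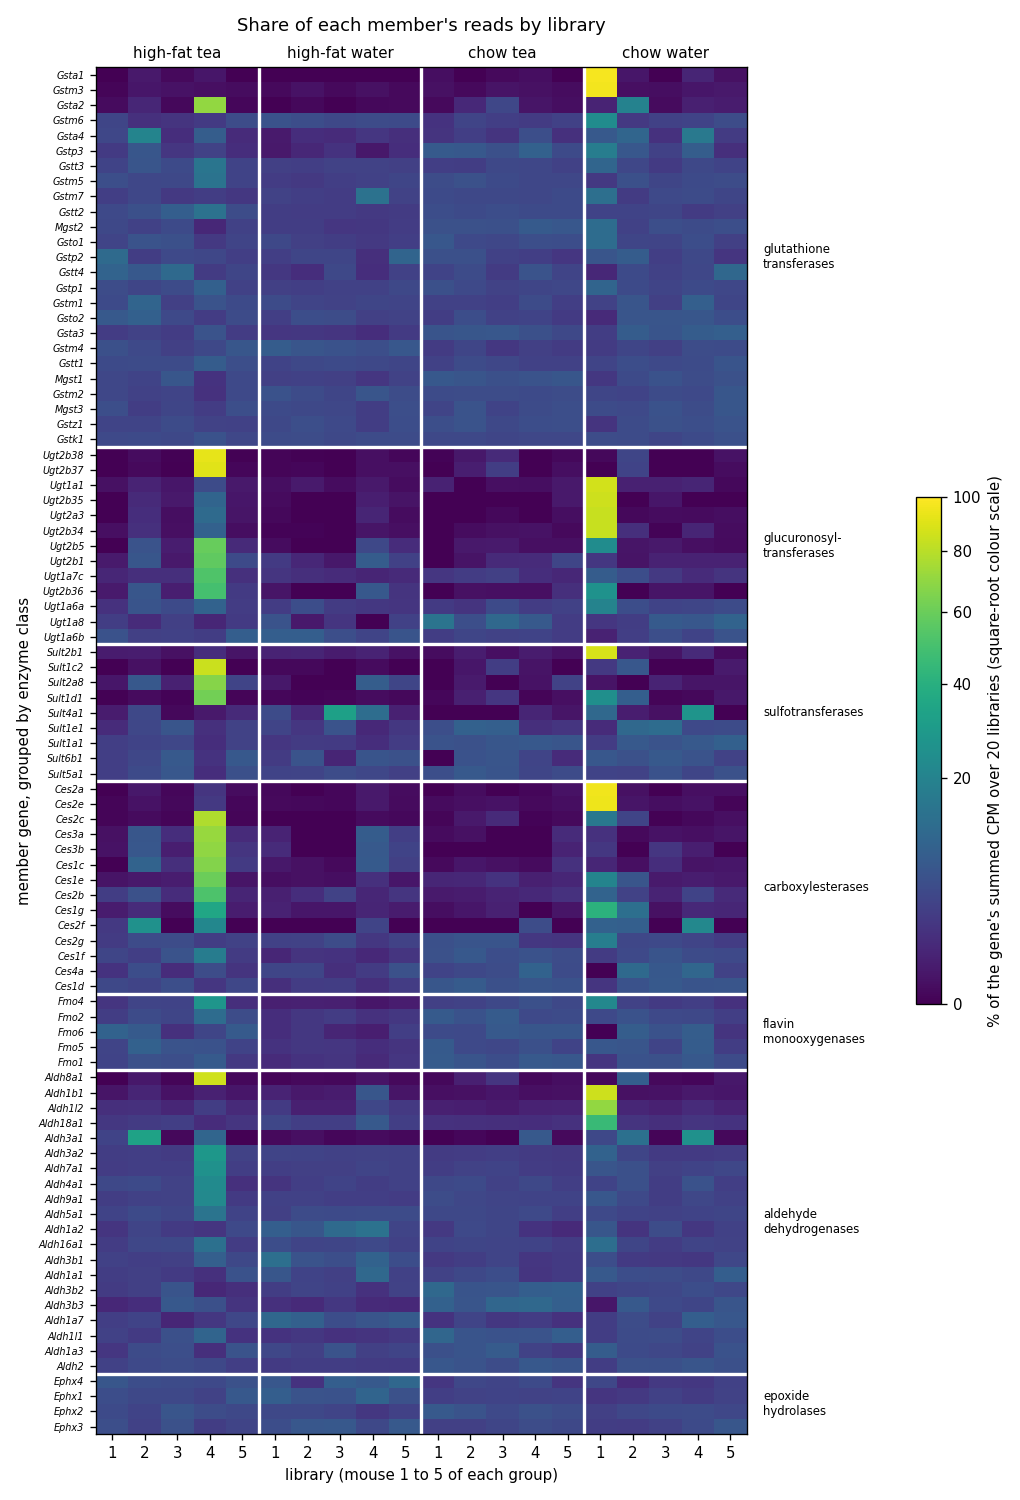
Share of each tested member's reads by library. Each row is 1 of 90 of the 91 tested members, grouped by enzyme class, each column is 1 of the 20 libraries, and the colour is the percentage of the gene's CPM, summed over the 20 libraries, that was found in that library. High-fat tea replicate 4 held over 50% of the summed CPM of 16 members and chow water replicate 1 of 11.

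Levels were compared as TPM, the level per length relative to all genes, where the length covers all annotated exonic bases of a gene. That length can exceed a transcript's, which lowers the TPM. Fmo1 has 6304 exonic bases and a longest protein-coding transcript of 2388 bases. By this measure the most abundant member was Ces1d, the carboxylesterase that also hydrolyses triglycerides in fat cells. Ces1d had a mean of 2444 TPM over the 20 libraries. It made up 87.1% of the summed TPM of all carboxylesterases. Mgst1, a membrane-bound glutathione transferase, followed with 1449 TPM, Gstm1, of the mu class, with 1019 TPM, and Ephx2, the soluble epoxide hydrolase of fatty acid epoxides, with 873.7 TPM. Aldh2, the mitochondrial enzyme that oxidises acetaldehyde, had a mean of 578.5 TPM, Sult1a1, the phenol sulfotransferase, 377.0 TPM, and Fmo1, the most abundant flavin monooxygenase, 175.1 TPM. Glucuronosyltransferases were scarce. Their summed level had a median of 32.8 TPM in high-fat tea, 25.4 TPM in high-fat water, 18.0 TPM in chow tea and 29.9 TPM in chow water libraries, but 1837 TPM in high-fat tea replicate 4, which had the kidney transcripts.

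**Figure D2:**
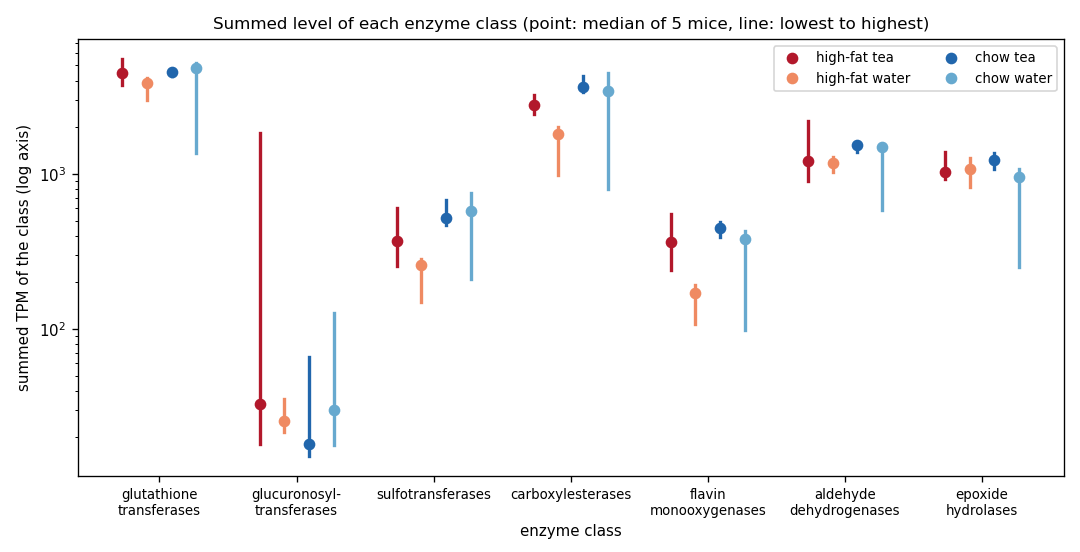
Summed level of each enzyme class in the 4 groups. The y axis is the summed TPM of all members of a class on a log axis; points are medians and lines span the lowest to the highest of 5 mice. The flavin monooxygenases had a median of 365.7 TPM in high-fat tea, 170.8 TPM in high-fat water, 444.5 TPM in chow tea and 377.9 TPM in chow water libraries.

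The summed level of the flavin monooxygenases ranged from 240.3 to 550.7 TPM in high-fat tea and from 107.5 to 193.2 TPM in high-fat water libraries. It was 394.5 to 486.3 TPM in chow tea and 98.9 to 427.8 TPM in chow water libraries, where the lowest was the library with pancreas transcripts. The carboxylesterases had a median of 2791 TPM in high-fat tea, 1799 TPM in high-fat water, 3657 TPM in chow tea and 3442 TPM in chow water libraries. In bulk tissue, fewer cells of a type and less RNA per cell cannot be told apart.

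How the diet alone moved these enzymes was asked between the high-fat water and chow water groups. Among the members that passed the test, more were lower than higher on the high-fat diet. By the quasi-likelihood test of edgeR, with p-values adjusted over all genes tested (Benjamini-Hochberg), 25 of 91 members were called at an adjusted p below 0.05 (27.5%), against 15.2% of all genes tested. Of these, 21 were lower, where 7.11% of all genes were called lower, and 4 were higher, where 8.06% of all genes were called higher. The libraries of the groups did not overlap in 12 members, against 12.9% of all genes, so that this share was near the background. The median log2 fold change was −0.86 over the tested members and −0.00 over all genes tested. Of the tested members, 21 had their highest level in chow water 1, whose part in this median was not tested. Without chow water 1, high-fat water 4 and high-fat tea 4 (3 of the 9 libraries with transcripts of other organs) 26 of 88 members were called, 20 of them lower, while 4546 of 21409 genes were called in all. With limma voom 16 were called, 12 of them lower, while 3041 of 21306 genes were called in all. Without all 9 libraries 16 of 91 were called too, 12 of them lower, while 2052 of 22311 genes were called in all. Without high-fat water 1, 3 or 5 the count was 12, 15 or 16, and the range over all genes in fits without 1 library is given at the end. Of the 25 members, 11 were called without the 9 libraries too, namely Fmo1, Fmo4, Ces1d, Ces1f, Ephx1, Aldh2, Aldh1l1, Aldh3b1, Gsta3, Mgst2 and Sult1a1. That fit compared only high-fat water 1 and 2 with chow water 3, 4 and 5.

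Among the flavin monooxygenases, 4 of 6 tested members fell with the high-fat diet and 0 rose, where 7.11% of all genes were called lower. Fmo1 (chromosome 1, 162657130 to 162694179, minus strand in GRCm39) had 110, 152, 171, 99.7 and 179 CPM in high-fat water libraries, against 174, 461, 447, 549 and 382 CPM in chow water libraries. All high-fat water libraries but 1 lay below the lowest chow water library, which was the library with pancreas transcripts. Fmo1 fell by 1.50 on the log2 scale (SE 0.29, adjusted p = 0.00333 by edgeR), to 142.3 ± 35.6 CPM in high-fat water, against 402.6 ± 141.1 CPM in chow water libraries (SD, n = 5 each). Fmo5, an unusual member of the family that inserts oxygen next to ketones (chromosome 3, 97536120 to 97562598, plus strand), had 44.9, 54.8, 52.5, 37.2 and 48.3 CPM in high-fat water, against 157, 146, 88.2, 181 and 69.0 CPM in chow water libraries. No library overlapped, and Fmo5 fell by 1.43 (SE 0.28, adjusted p = 0.00325 by edgeR). Both calls held without any 1 library of the groups compared, and that of Fmo5 ended without the 9 libraries (log2 −1.20).

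Fmo2, known from the lung of rodents (chromosome 1, 162701886 to 162726295, minus strand), and Fmo4, whose substrates are little known (chromosome 1, 162620757 to 162641541, minus strand), lie beside Fmo1. Fmo2 had 57.2, 87.2, 105, 68.0 and 85.9 CPM in high-fat water, against 157, 209, 160, 152 and 110 CPM in chow water libraries. Its groups met but did not overlap, and it fell by 0.97 (SE 0.29, adjusted p = 0.0339 by edgeR), a call that held only without chow water 1, chow water 5 or high-fat water 3 and ended without any 1 of the other 7 libraries (log2 −1.08 to −0.85). Fmo4 was at 0.979, 1.00, 0.995, 0.458 and 0.759 CPM in high-fat water, against 26.9, 4.85, 3.54, 4.17 and 2.57 CPM in chow water libraries. Every high-fat water library lay below every chow water library, and the highest was the one with pancreas transcripts. Fmo4 fell by 3.32 (SE 0.76, adjusted p = 0.00842 by edgeR), and by 2.22 without chow water 1, where the call held. Fmo6 (log2 −1.46, adjusted p = 0.117 by edgeR), in the same cluster, was scarce and not called.

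Carboxylesterases fell in 4 of 14 tested members, where 7.11% of all genes were called lower. Ces1d had 671, 1165, 1256, 678 and 1194 CPM in high-fat water, against 903, 2365, 2953, 2555 and 2609 CPM in chow water libraries. The high-fat water libraries lay below all chow water libraries but replicate 1, and Ces1d fell by 1.20 (SE 0.30, adjusted p = 0.013 by edgeR), or by 1.45 without that library. Its neighbour Ces1f, which also acts on lipid esters (chromosome 8, 93982864 to 94006375, minus strand), had 73.4, 143, 138, 81.2 and 147 CPM in high-fat water, against 188, 312, 423, 334 and 307 CPM in chow water libraries. The groups of Ces1f did not overlap and it fell by 1.42 (SE 0.40, adjusted p = 0.0231 by edgeR), a call that ended without chow water 3 (log2 −1.29), high-fat water 1 (−1.30) or high-fat water 4 (−1.33). Ces2a and Ces2e, carboxylesterases of intestine and liver, had log2 changes of −7.18 and −7.11. They stood at 101 and 471 CPM in chow water 1 and at no more than 0.231 and 1.66 CPM in the other chow water libraries, and without that library the changes were −0.12 and −0.42 and neither was called. The call of Ces2a also ended without chow water 2 or any 1 high-fat water library, and that of Ces2e without any 1 of high-fat water 1, 2, 3 and 5.

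Of 4 epoxide hydrolases tested, 2 rose and 0 fell, where 8.06% of all genes were called higher. Ephx1, the microsomal epoxide hydrolase (chromosome 1, 180803775 to 180848469, minus strand), had 198, 146, 140, 228 and 137 CPM in high-fat water, against 51.8, 60.7, 82.3, 66.8 and 84.6 CPM in chow water libraries. Every high-fat water library was higher than every chow water library. Ephx1 rose by 1.29 (SE 0.18, adjusted p = 0.000411 by edgeR), the lowest adjusted p among the members, and the call held without any 1 library and without 3 or 9. Ephx4 was the other epoxide hydrolase called higher, at 0.427 ± 0.189 CPM in high-fat water and 0.173 ± 0.066 CPM in chow water libraries (SD, n = 5 each); it was named after its values were seen. Ephx2 was not called (log2 −0.20, SE 0.19, adjusted p = 0.487 by edgeR).

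**Figure D3:**
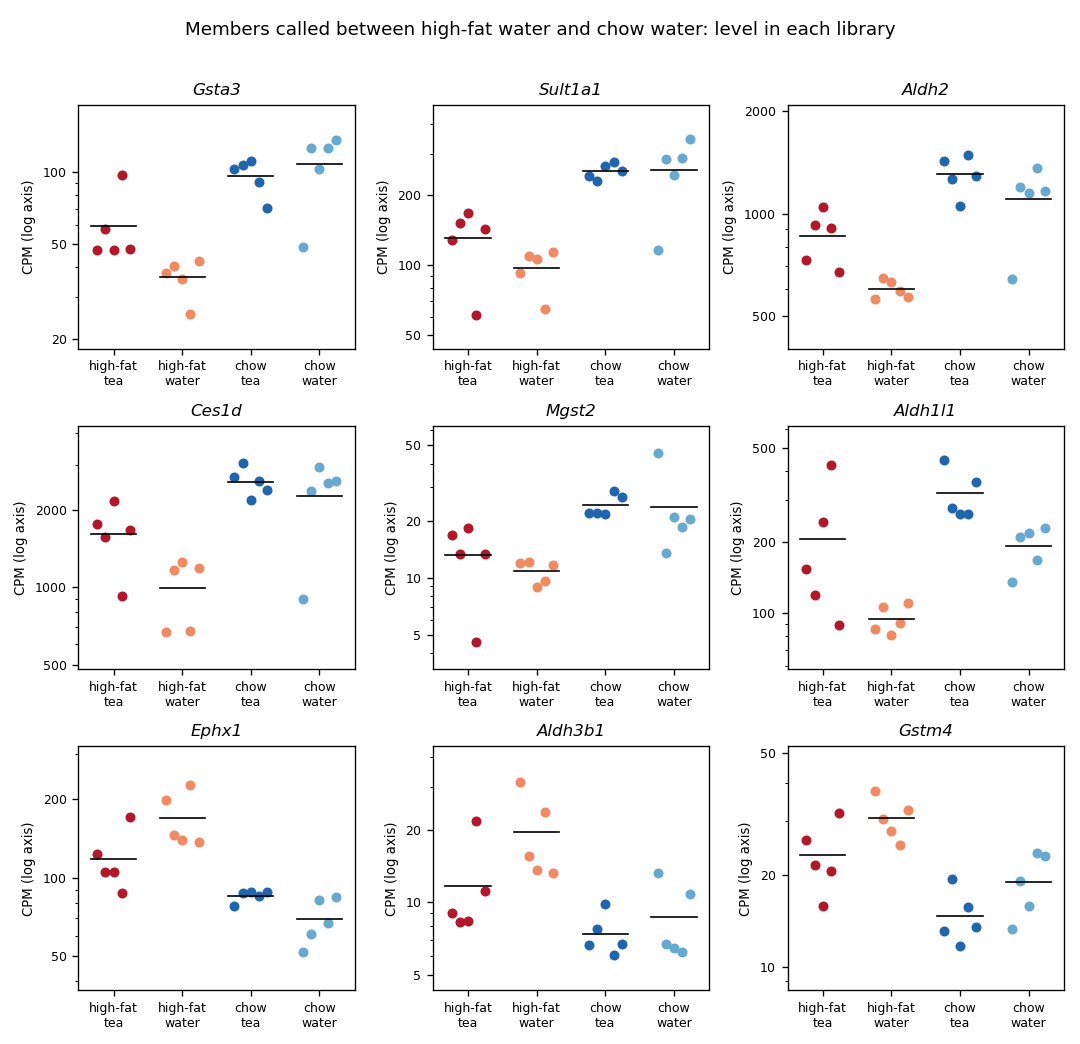
Level in each library of 9 members called between high-fat water and chow water. The y axes are CPM on log axes, each point is 1 mouse, and lines are group means (n = 5). Gsta3, Sult1a1, Aldh2, Ces1d, Mgst2 and Aldh1l1 have lower means in high-fat water than in chow water libraries, and Ephx1, Aldh3b1 and Gstm4 have higher means.

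Of 20 aldehyde dehydrogenases tested, 2 fell and 1 rose, where 7.11% of all genes were called lower and 8.06% higher. The calls in this family were thus near the share over all genes (15.2%). Aldh2 (chromosome 5, 121704090 to 121731887, minus strand) had 563, 646, 630, 594 and 571 CPM in high-fat water, against 643, 1196, 1151, 1360 and 1166 CPM in chow water libraries. All but chow water 1 lay well above the high-fat water libraries, and Aldh2 fell by 0.88 (SE 0.18, adjusted p = 0.00474 by edgeR), in every fit without 1 library too. Aldh1l1, a folate enzyme that oxidises formyltetrahydrofolate, had 85.4, 106, 81.0, 90.5 and 110 CPM in high-fat water, against 135, 210, 218, 168 and 229 CPM in chow water libraries. The groups did not overlap, but the fall of 1.02 (SE 0.31, adjusted p = 0.0361 by edgeR) kept its call only without chow water 1 and lost it without any 1 of the other 9 libraries (log2 −1.17 to −0.95). Aldh3b1, which oxidises lipid-derived aldehydes, had 31.6, 15.6, 13.6, 23.7 and 13.3 CPM in high-fat water, against 13.2, 6.71, 6.47, 6.21 and 10.8 CPM in chow water libraries. Its groups all but touched, and it rose by 1.17 (SE 0.32, adjusted p = 0.0196 by edgeR), a call that ended without chow water 2 (log2 1.09) or high-fat water 1 (log2 0.93).

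Glutathione transferases fell in 7 of 25 tested members and rose in 1, where 7.11% of all genes were called lower and 8.06% higher. Of the alpha class, all 4 tested members fell. Gsta3 (chromosome 1, 21310813 to 21335885, plus strand) had 37.7, 40.3, 35.6, 25.5 and 42.5 CPM in high-fat water, against 48.5, 126, 103, 126 and 136 CPM in chow water libraries. Every high-fat water library was lower, and Gsta3 fell by 1.57 (SE 0.26, adjusted p = 0.00109 by edgeR), with a call in all 10 fits without a library and without 3 or 9. Gsta4, which conjugates the lipid aldehyde 4-hydroxynonenal, was at 14.2 ± 6.25 CPM in high-fat water and 70.2 ± 51.2 CPM in chow water libraries (SD, n = 5 each). Gsta4 fell by 2.31 (SE 0.69, adjusted p = 0.032 by edgeR), a call that ended without chow water 2 or 4 or without any of high-fat water 1, 2, 3 and 5 (log2 −2.55 to −1.87).

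Gsta1 and Gsta2, also of the alpha class, were scarce in most libraries. Gsta2 had 0, 0.075, 0, 0.0954 and 0.119 CPM in high-fat water, against 1.73, 34.2, 0.154, 1.30 and 1.03 CPM in chow water libraries, where the highest was replicate 2, with kidney transcripts. Its fitted change was −6.98 (adjusted p = 0.0484 by edgeR), and −4.10 without that library, with no call; the call also ended without chow water 4 or any 1 high-fat water library. Gsta1 had no read in any high-fat water library. Set against a floor of 3 reads over that group, the chow water mean was 1107-fold higher, and 22.2-fold higher without chow water 1. In that library Gsta1 stood at 39.2 CPM, while the other chow water libraries had at most 0.42 CPM and replicate 3 had no read either. Since a pair of reads can give 2 counts, this floor sets no firm lower bound on the change. Of all stretches of 50 bases in the Gsta1 and Gsta2 transcripts, 89.7% and 64.2% occur in another gene as well, so that their reads are hard to assign.

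Of the other glutathione transferases, Mgst2, a membrane enzyme that can make leukotriene C4, had 11.9, 12.1, 8.89, 9.54 and 11.6 CPM in high-fat water, against 45.3, 13.4, 20.8, 18.6 and 20.4 CPM in chow water libraries. The groups did not overlap and Mgst2 fell by 1.13 (SE 0.31, adjusted p = 0.0226 by edgeR), or by 0.81 without chow water 1, and its call ended without high-fat water 3 (log2 −1.07). Gstm4, of the mu class, had 37.5, 30.5, 27.8, 25.0 and 32.5 CPM in high-fat water, against 13.3, 19.1, 15.8, 23.6 and 23.0 CPM in chow water libraries. Every high-fat water library was higher, and Gstm4 rose by 0.69 (SE 0.19, adjusted p = 0.0238 by edgeR), a call that ended without chow water 1 (log2 0.55), chow water 3 (0.64) or high-fat water 1 (0.61). Gstp3, a scarce pi-class gene, fell by 2.73 (SE 0.58, adjusted p = 0.00553 by edgeR) to 0.269 ± 0.168 CPM in high-fat water, against 1.80 ± 1.44 CPM in chow water libraries (SD, n = 5 each). Gstm3 had a change of −7.21, with 61.1 CPM in chow water 1 and at most 0.289 CPM in the other chow water libraries, and without that library it was at −1.18 and not called.

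The abundant Mgst1 (log2 −0.56, adjusted p = 0.158 by edgeR), Gstm1 (log2 −0.35, adjusted p = 0.415) and Gstp1, of the pi class (log2 −0.60, adjusted p = 0.109), were not called. Nor were Gsto1, of the omega class (log2 −0.78, adjusted p = 0.0858), Gstt1, of the theta class (log2 −0.21, adjusted p = 0.358), or Gstz1, which acts in tyrosine breakdown (log2 −0.09, adjusted p = 0.814). Gstk1, the kappa-class enzyme of mitochondria and peroxisomes, was at 36.3 ± 1.98 CPM in high-fat water and 36.3 ± 4.04 CPM in chow water libraries (SD, n = 5 each), with a log2 change of −0.00 (SE 0.10).

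Of the 9 sulfotransferases tested, 2 fell, where 7.11% of all genes were called lower. Sult1a1 (chromosome 7, 126272037 to 126275604, minus strand) had 92.8, 109, 106, 64.7 and 114 CPM in high-fat water, against 116, 283, 242, 286 and 346 CPM in chow water libraries. All high-fat water libraries were lower, and Sult1a1 fell by 1.39 (SE 0.26, adjusted p = 0.00284 by edgeR), a call that held without any 1 library and without 3 or 9. Sult2b1, which sulfates cholesterol, had a change of −4.55 that rested on 25.5 CPM in chow water 1, and it was at 0.14 without that library. Among 13 glucuronosyltransferases tested, Ugt1a1, the enzyme of bilirubin glucuronidation, and Ugt2b34 were called lower (log2 −6.03 and −7.39). Both were highest in chow water 1, at 25.5 and 231.2 CPM, and without it they stood at −1.39 and −2.91 with no call. The call of Ugt1a1 also ended without any 1 of high-fat water 1, 3 and 5, that of Ugt2b34 without any 1 of high-fat water 1, 2, 3 and 5, and that of Sult2b1 without any 1 high-fat water library. Of the exonic bases of Ugt1a1, 82.7% also belong to another gene, 58.9% on the same strand, where Ugt1a genes share their last exons, and 41.5% on the opposite strand.

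Markers of other cells moved with the diet as well. The macrophage list of 16 genes summed to between 1973 and 5270 CPM in high-fat water and between 869.9 and 2332 CPM in chow water libraries, with 6 genes called higher and 1 lower. The mesothelial list of 11 genes summed to 147.9 to 349.9 CPM in high-fat water and 287.6 to 1441 CPM in chow water libraries, with 3 called lower. The adipocyte list summed to 31120 to 55490 CPM in high-fat water (median 51140) and 21710 to 72090 CPM in chow water libraries (median 59970). Of its 15 genes, 0 were called higher and 1 lower. Its lowest chow water library was replicate 1, with pancreas transcripts, and the others had 51530 to 72090 CPM. The lowest high-fat water library was replicate 4, and the others had 50000 to 55490 CPM. The part of these cells in the changes of the members was not tested.

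Whether tea moved these enzymes on the high-fat diet was asked between the high-fat tea and high-fat water groups. All 4 flavin monooxygenases that were lower with the high-fat diet were higher with tea, as were Ces1f and Gstt2, and a pair of aldehyde dehydrogenases was lower. In all, 8 of 91 members were called (8.79%), against 4.36% of all genes tested. Of these, 6 were higher, where 2.06% of all genes were called higher, and 2 were lower, where 2.3% of all genes were called lower. The libraries of the groups did not overlap in 11 members, against 5.55% of all genes. The median log2 fold change was 0.93 over the members and 0.02 over all genes. Of the tested members, 31 had their highest level in high-fat tea 4, whose part in this median was not tested. The kidney list had a median of 8.61 and the liver list of 3.29. With DESeq2 24 members were called, 22 of them higher, while 2444 of 21306 genes were called in all. Without chow water 1, high-fat water 4 and high-fat tea 4 there were 10 of 88 called, 8 of them higher, while 1602 of 21409 genes were called in all. With only the 2 compared groups in the fit, 0 of 8 calls held, while 21 of 19709 genes were called in all. Without the 9 libraries 0 of 8 held too, while 13 of 22311 genes were called in all. That fit compared only high-fat tea 2 and 5 with high-fat water 1 and 2. In fits without 1 library, 3 members were called without high-fat water 1 and 18 without high-fat tea 5. The count of all genes called varied widely over such fits as well, with its range given at the end.

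**Figure D4:**
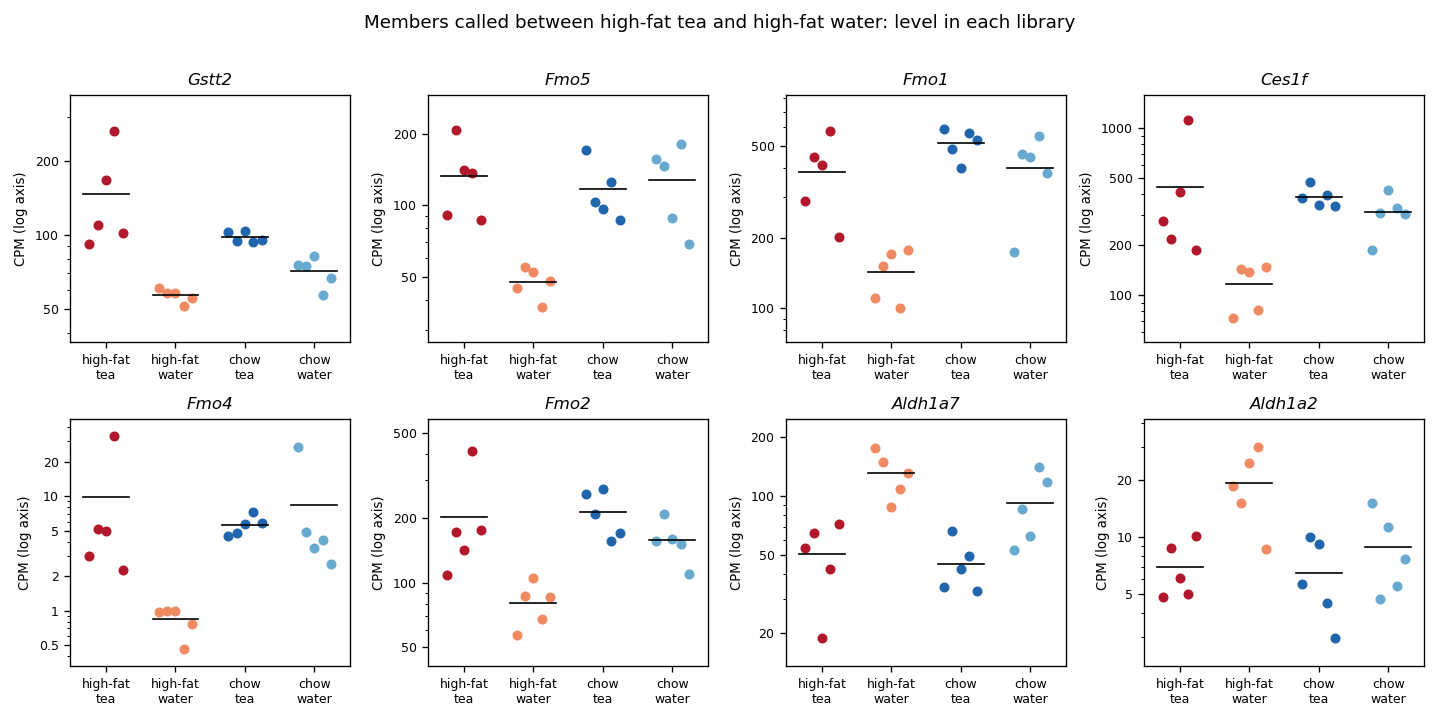
Level in each library of the 8 members called between high-fat tea and high-fat water. The y axes are CPM on log axes, each point is 1 mouse, and lines are group means (n = 5). Gstt2, Fmo5, Fmo1, Ces1f, Fmo4 and Fmo2 are higher in all high-fat tea libraries than in any high-fat water library, with high-fat tea replicate 4 the highest of Gstt2, Fmo1, Ces1f, Fmo4 and Fmo2; Aldh1a7 and Aldh1a2 have lower means with tea.

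Fmo5 had 90.7, 207, 140, 136 and 86.3 CPM in high-fat tea libraries, against 44.9, 54.8, 52.5, 37.2 and 48.3 CPM in high-fat water libraries. Every tea library was higher, and Fmo5 rose by 1.48 (SE 0.28, adjusted p = 0.0104 by edgeR), with 1.47 without high-fat tea 4, the library with kidney transcripts. Fmo1 had 288, 449, 412, 576 and 203 CPM in high-fat tea, against 110, 152, 171, 99.7 and 179 CPM in high-fat water libraries. Again all tea libraries were higher, and Fmo1 rose by 1.44 (SE 0.29, adjusted p = 0.0141 by edgeR), or by 1.25 without high-fat tea 4. The calls of Fmo5 and Fmo1 held without any 1 library.

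Fmo2 had 109, 172, 142, 413 and 175 CPM in high-fat tea, against 57.2, 87.2, 105, 68.0 and 85.9 CPM in high-fat water libraries. The groups did not overlap, and Fmo2 rose by 1.33 (SE 0.30, adjusted p = 0.0207 by edgeR), or by 0.89 without high-fat tea 4. Fmo4 had 2.99, 5.18, 5.01, 33.5 and 2.27 CPM in high-fat tea, against 0.979, 1.00, 0.995, 0.458 and 0.759 CPM in high-fat water libraries. All tea libraries were higher, with replicate 4 far above the rest, and Fmo4 rose by 3.55 (SE 0.77, adjusted p = 0.0179 by edgeR), or by 2.20 without that library. Without high-fat water 1 the calls of Fmo2 (log2 1.23) and Fmo4 (log2 3.61) ended.

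Ces1f had 278, 216, 416, 1120 and 186 CPM in high-fat tea, against 73.4, 143, 138, 81.2 and 147 CPM in high-fat water libraries. All tea libraries were higher, and Ces1f rose by 1.93 (SE 0.40, adjusted p = 0.0161 by edgeR); the change was 1.23 without high-fat tea 4, and the call ended without high-fat water 1 (log2 1.80). Ces1d averaged 1622 ± 449.0 CPM in high-fat tea and 992.9 ± 292.4 CPM in high-fat water libraries (SD, n = 5 each) and was not called (log2 0.71, SE 0.29, adjusted p = 0.154 by edgeR).

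Gstt2, a theta-class glutathione transferase (chromosome 10, 75666948 to 75673258, minus strand), had the lowest p of the members in this comparison. It had 91.8, 110, 166, 263 and 102 CPM in high-fat tea, against 61.1, 58.2, 58.3, 51.5 and 55.4 CPM in high-fat water libraries. All tea libraries were higher, and Gstt2 rose by 1.37 (SE 0.21, adjusted p = 0.0045 by edgeR), or by 1.05 without high-fat tea 4, with a call in all 10 fits without a library. Its neighbour Gstt1 was higher in every tea library too, at 66.6 ± 15.5 CPM in high-fat tea and 51.2 ± 4.55 CPM in high-fat water libraries (SD, n = 5 each), but was not called (log2 0.38, adjusted p = 0.143 by edgeR). Gsta3 and Aldh2 also had no overlap between the groups and no call (log2 0.71, adjusted p = 0.102, and log2 0.51, adjusted p = 0.0987).

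Aldh1a7 and Aldh1a2 fell with tea. Aldh1a7, a rodent relative of the retinaldehyde dehydrogenase Aldh1a1 (chromosome 19, 20670317 to 20704926, minus strand), had 54.3, 64.8, 18.9, 42.6 and 72.5 CPM in high-fat tea, against 177, 149, 87.8, 110 and 131 CPM in high-fat water libraries. All tea libraries were lower, and Aldh1a7 fell by 1.37 (SE 0.33, adjusted p = 0.0282 by edgeR), a call that ended without any 1 of high-fat tea 2, 3 and 4 and high-fat water 1 and 2 (log2 −1.54 to −1.16). Aldh1a2, which makes retinoic acid from retinaldehyde (chromosome 9, 71123071 to 71203525, plus strand), averaged 6.98 ± 2.35 CPM in high-fat tea and 19.4 ± 8.27 CPM in high-fat water libraries (SD, n = 5 each). Aldh1a2 fell by 1.48 (SE 0.40, adjusted p = 0.0435 by edgeR), and its call ended without any 1 of 8 libraries, that is, all but high-fat water 5 and high-fat tea 5 (log2 −1.66 to −1.25). Without chow water 1, high-fat water 4 and high-fat tea 4 it was at −1.17 and not called. The highest tea library, at 10.1 CPM, lay above the lowest water library, at 8.67 CPM. The macrophage list, by way of comparison, summed to 808.3 to 2583 CPM in high-fat tea and 1973 to 5270 CPM in high-fat water libraries, with 3 of 16 genes called lower. The mesothelial list summed to 213.8 to 607.7 CPM in high-fat tea (median 402.4) and 147.9 to 349.9 CPM in high-fat water libraries (median 191.9), with 0 of 11 genes called and a median log2 change of 0.90. The adipocyte list summed to 22350 to 59400 CPM in high-fat tea (median 51510) and 31120 to 55490 CPM in high-fat water libraries (median 51140). Of its 15 genes, 1 was called higher. The lowest tea library was replicate 4, with kidney transcripts, and the others had 39810 to 59400 CPM. The part of these cells in the changes of the members was not tested with tea either.

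Reads of Aldh1a7 could in part come from Aldh1a1, since 7.5% of the 50-base stretches of the Aldh1a7 transcript also occur in Aldh1a1. Their longest open reading frames, of 1506 bases each in the GENCODE transcripts, differ at 126 bases, an identity of 91.6%. The opening 75 bases of both are shown, on chromosome 19, with the 4 bases that differ in capitals.
Aldh1a7: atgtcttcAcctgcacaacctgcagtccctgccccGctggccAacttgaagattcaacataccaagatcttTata
Aldh1a1: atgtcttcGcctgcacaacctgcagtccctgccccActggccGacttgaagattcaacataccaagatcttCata
Aldh1a1 averaged 109.8 ± 49.8 CPM in high-fat tea and 185.5 ± 104.7 CPM in high-fat water libraries (SD, n = 5 each).

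The 5 members called in both comparisons, Fmo1, Fmo2, Fmo4, Fmo5 and Ces1f, had opposite directions in them. How many of all genes were called in both was not counted, so this number has no background beside it. The comparisons share the high-fat water libraries, so that a low value there lowers the diet change and raises the tea change alike. Fmo1 averaged 385.5 CPM in high-fat tea and 402.6 CPM in chow water libraries, and Fmo5 132.2 CPM in high-fat tea and 128.1 CPM in chow water libraries. Fmo2 averaged 202.3 CPM in high-fat tea and 157.6 CPM in chow water libraries, and Ces1f 443.1 CPM in high-fat tea and 312.6 CPM in chow water libraries; these groups differ in both diet and drink and were not compared by a test.

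**Figure D5:**
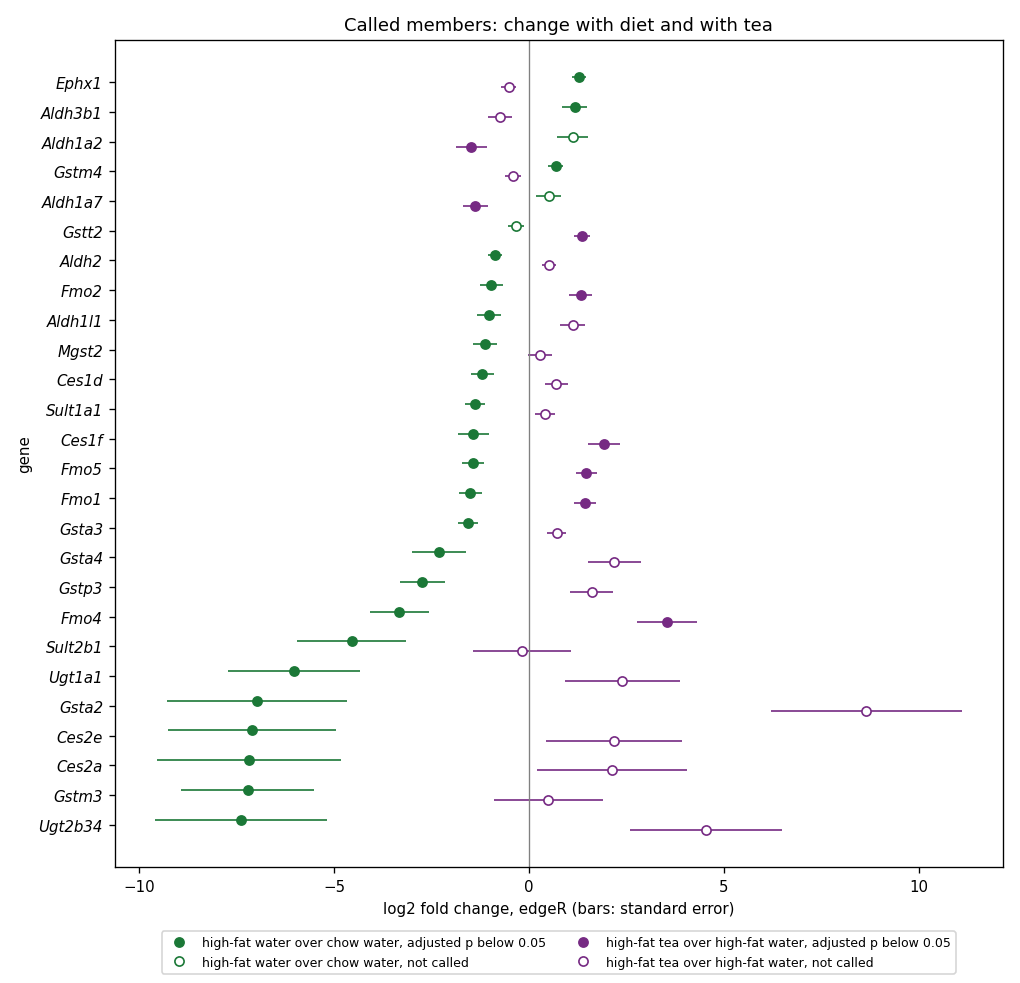
Change with diet and with tea of the named members called in either comparison, other than Gsta1, which had no read in high-fat water. The x axis is the log2 fold change with its standard error, green for high-fat water over chow water and purple for high-fat tea over high-fat water, and filled points have an adjusted p below 0.05. The members with changes near −7 in green are those whose highest chow water library was replicate 1 or 2, and both comparisons share the high-fat water libraries.

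In chow-fed mice, 0 of 91 members were called between tea and water by edgeR's quasi-likelihood test, against 0.0235% of all genes tested. At an unadjusted p below 0.05 there were 23 (25.3%), against 12.4% of all genes, with 1 member called by DESeq2 and 0 by limma voom. DESeq2 called more of all genes too, with the count given at the end. The lowest p belonged to Gstm3 (log2 −6.86, adjusted p = 0.189), which rested on chow water 1. Fmo1 was at 514.2 ± 75.3 CPM in chow tea and 402.6 ± 141.1 CPM in chow water libraries (SD, n = 5 each; log2 0.35, SE 0.29), and Fmo5 was at 116.6 ± 33.7 CPM in chow tea and 128.1 ± 47.4 CPM in chow water libraries (log2 −0.14, SE 0.27). Gstt2 had no overlap between chow tea (98.0 ± 4.79 CPM) and chow water libraries (71.5 ± 9.78 CPM, SD, n = 5 each). It was not called (log2 0.45, SE 0.21, adjusted p = 0.39 by edgeR), and the share of all genes without overlap was not counted here. Aldh1a7 was at 45.2 ± 13.7 CPM in chow tea and 92.3 ± 37.4 CPM in chow water libraries (SD, n = 5 each; log2 −1.03, SE 0.33, adjusted p = 0.232).

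Between high-fat and chow feeding in tea-drinking mice, 0 of 91 members were called by edgeR, against 0.178% of all genes. At an unadjusted p below 0.05 there were 33 (36.3%), against 16.3% of all genes. DESeq2 called 11 members and limma voom 1, and both called more of all genes than edgeR, with the counts given at the end. Without chow water 1, high-fat water 4 and high-fat tea 4 there were 7 members called, where 292 of 21409 genes were called in all. Sult1a1 had no overlap between high-fat tea (130.0 ± 41.0 CPM) and chow tea libraries (253.0 ± 18.2 CPM; SD, n = 5 each), with a log2 change of −0.96 (SE 0.26, adjusted p = 0.114). Aldh2, Ces1d and Mgst2 were likewise lower in every high-fat tea than in every chow tea library (log2 −0.60, −0.67 and −0.87, with adjusted p = 0.14, 0.271 and 0.195 by edgeR). The share of all genes without overlap between these groups was not counted, so these separations have no background beside them. The flavin monooxygenases called in the other comparisons had log2 changes of −0.42 for Fmo1 (SE 0.29), −0.08 for Fmo2 (SE 0.29), 0.79 for Fmo4 (SE 0.70) and 0.18 for Fmo5 (SE 0.27).

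The interaction asks whether the change with tea differed between the diets, as the tea change on the high-fat diet minus that on chow. By edgeR 0 of 91 members were called, against 0.0657% of all genes, so that no member's tea change was shown to differ between the diets. At an unadjusted p below 0.05 there were 45 members (49.5%), against 15% of all genes, with 11 called by DESeq2 and 0 by limma voom. Of all genes, too, DESeq2 called more in the interaction than edgeR, with the count given at the end. High-fat tea 4 and chow water 1, where 31 and 21 tested members were highest, both enter this difference with a plus sign. Its median was 12.77 for the pancreas list, 11.68 for intestine, 10.23 for kidney, 3.45 for liver and 0.28 for skeletal muscle. It was −2.12 for adrenal cortex and −6.41 for epididymis and seminal vesicle. The part of these libraries in the 45 members was not tested. The lowest p belonged to Fmo5, with a difference of 1.61 on the log2 scale (SE 0.39, adjusted p = 0.112), followed by Fmo4 (4.11, SE 1.02, adjusted p = 0.116). The difference was 1.08 for Fmo1 (SE 0.40, adjusted p = 0.205), 0.89 for Fmo2 (SE 0.41, adjusted p = 0.32), 1.62 for Ces1f (SE 0.55, adjusted p = 0.174) and 0.91 for Gstt2 (SE 0.30, adjusted p = 0.157).

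Genes around the enzymes were counted from lists of regulators, cofactor supply and transporters. Of 19 regulators tested, 2 rose and 3 fell with the high-fat diet in water-drinking mice, where 8.06% of all genes were called higher and 7.11% lower. Dbp, a clock-driven factor that binds D-box sites and is known in mouse liver and kidney to act on xenobiotic genes, rose by 4.62 (SE 0.23), to 68.3 ± 13.4 CPM in high-fat water, against 2.77 ± 0.687 CPM in chow water libraries (SD, n = 5 each), and its relative Tef rose by 1.44 (SE 0.23). Ahr, the aryl hydrocarbon receptor, fell by 0.85 (SE 0.20) and its partner Arnt by 0.53 (SE 0.16). Nr1i2, the pregnane X receptor, fell by 7.96 (SE 2.40) to 0.0494 ± 0.0371 CPM in high-fat water, against 13.0 ± 28.7 CPM in chow water libraries (SD, n = 5 each), where it stood at 64.3 CPM in chow water 1 and at 0.0256 to 0.678 CPM in the other 4. Without chow water 1 it was at −2.01 and not called. Nfe2l2, the factor NRF2 that drives glutathione transferases, was not called with diet (log2 −0.29) or with tea on the high-fat diet (log2 0.09).

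Of 20 cofactor genes tested, 3 rose with tea on the high-fat diet and 0 fell, namely Gsr, glutathione reductase (log2 1.04, SE 0.28), Ugdh, which makes UDP-glucuronic acid (0.79, SE 0.19), and Por, the cytochrome P450 reductase (0.71, SE 0.18). In this comparison 2.06% of all genes were called higher. High-fat tea 4, with its kidney transcripts, held 4474 CPM of the cofactor list, against 1650 to 2109 CPM in the other 4 tea libraries and 1276 to 1574 CPM in high-fat water libraries. Gsr was at 155.4 CPM in that library and at 40.4 to 66.6 CPM in the other 4. Without it the changes were 0.51 for Gsr, 0.69 for Ugdh (not called) and 0.77 for Por. The part of the kidney transcripts was not tested. The call of Gsr ended without any 1 of 6 libraries, that of Ugdh without any 1 of 6 and that of Por without any 1 of 7. With the high-fat diet in water-drinking mice 3 fell and 0 rose, namely Papss2, which makes the sulfate donor (log2 −1.17, SE 0.31), Cyb5a, cytochrome b5 (−0.75, SE 0.24), and Por (−0.67, SE 0.18). Of 16 transporters, Abcb1b, an export pump, rose (log2 2.57, SE 0.81) and Slco2a1, a prostaglandin carrier, fell (log2 −0.92, SE 0.28) with the diet, and 0 were called with tea on the high-fat diet. The cofactor and transporter counts with the diet were near the share of all genes called, 15.2%. Abcb1b was at 701.7 CPM in high-fat water 4 and at 24.8 to 31.1 CPM in the other 4 high-fat water libraries, and without high-fat water 4 its change was 0.06 with no call. Slco2a1 was at 49.9 CPM in chow water 1 and at 17.1 to 24.5 CPM in the other 4 chow water libraries, and without chow water 1 it was at −0.57 with no call. Of the 10 libraries compared with diet, leaving out any 1 of 8 ended the call of Arnt, any 1 of 9 that of Cyb5a, any 1 of 6 those of Nr1i2 and Abcb1b, any 1 of 5 that of Slco2a1 and any 1 of 2 (high-fat water 1 or 4) that of Por, while those of Dbp, Tef, Ahr and Papss2 held. No regulator was called with tea on the high-fat diet. In chow-fed mice Dbp rose with tea by 1.70 (SE 0.21). In tea-drinking mice Dbp and Tef were called higher with the high-fat diet (log2 2.89 and 1.28), and the call of Tef ended without any 1 of 6 libraries. Dbp was also called in the interaction (log2 −1.73), a call that ended without any 1 of 12 of the 20 libraries.

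Promoters from 250 bases before to 50 after the start were available from RefSeq (GRCm38.p6) for 95 of the 116 members, as 111 promoters. They were searched on both strands for the antioxidant response element core TGACNNNGC, the xenobiotic response element core GCGTG, and the D-box, as TTATGTAA or TTACGTAA. The antioxidant core was found in 5.4% of member promoters, against 12.4% of all 32851 promoters in the table, and the xenobiotic core in 19.8%, against 32.4%. The D-box was found in 7.2% of member promoters, against 1.1% of all, with a site shared by overlapping Ces1b promoters counted in each. These matches of letters are a description of the windows. Promoters of members that were called are shown in GRCm38.p6 coordinates, 5′ to 3′ on the gene's strand, with matches in capitals: Fmo4 and Fmo5, lower with the high-fat diet and higher with tea, have no match, nor has Ephx1, higher with the high-fat diet. Gsta3, lower with the diet, has an antioxidant core at positions −121 to −113 from the start. Aldh1a2, lower with tea, has a xenobiotic core at −128 to −124 and an antioxidant core at −112 to −104.
Fmo4 (chr1:162812500-162812799, minus strand): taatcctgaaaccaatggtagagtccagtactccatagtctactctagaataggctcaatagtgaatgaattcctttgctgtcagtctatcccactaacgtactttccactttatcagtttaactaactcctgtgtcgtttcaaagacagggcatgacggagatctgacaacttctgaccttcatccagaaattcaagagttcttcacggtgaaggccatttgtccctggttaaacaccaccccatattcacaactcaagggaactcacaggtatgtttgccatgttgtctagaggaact
Fmo5 (chr3:97628769-97629068, plus strand): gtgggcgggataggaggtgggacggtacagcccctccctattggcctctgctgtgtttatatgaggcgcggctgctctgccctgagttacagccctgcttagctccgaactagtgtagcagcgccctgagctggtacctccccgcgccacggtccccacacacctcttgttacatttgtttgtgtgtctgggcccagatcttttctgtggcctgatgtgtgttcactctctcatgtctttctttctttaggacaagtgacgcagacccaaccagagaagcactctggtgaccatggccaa
Ephx1 (chr1:181017520-181017819, minus strand): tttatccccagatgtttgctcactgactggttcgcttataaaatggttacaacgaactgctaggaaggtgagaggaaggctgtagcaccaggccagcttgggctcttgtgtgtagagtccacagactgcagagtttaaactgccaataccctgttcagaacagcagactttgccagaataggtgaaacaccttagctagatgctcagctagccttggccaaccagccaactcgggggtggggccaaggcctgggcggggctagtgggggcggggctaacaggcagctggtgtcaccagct
Gsta3 (chr1:21240335-21240634, plus strand): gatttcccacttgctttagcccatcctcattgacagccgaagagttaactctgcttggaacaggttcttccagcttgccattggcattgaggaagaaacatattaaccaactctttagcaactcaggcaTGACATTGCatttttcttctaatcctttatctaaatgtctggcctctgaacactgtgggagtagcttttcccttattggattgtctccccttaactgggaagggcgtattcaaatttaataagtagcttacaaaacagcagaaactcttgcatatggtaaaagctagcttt
Aldh1a2 (chr9:71215539-71215838, plus strand): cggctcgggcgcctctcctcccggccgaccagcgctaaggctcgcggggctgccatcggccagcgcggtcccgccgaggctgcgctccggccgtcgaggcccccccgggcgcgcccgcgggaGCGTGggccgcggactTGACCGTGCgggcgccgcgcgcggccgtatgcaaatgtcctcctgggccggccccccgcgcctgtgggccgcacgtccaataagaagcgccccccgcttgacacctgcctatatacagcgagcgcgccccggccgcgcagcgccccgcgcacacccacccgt

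The D-box matches were mostly in the carboxylesterase cluster on chromosome 8, in 6 of 7 Ces1 promoters, of the genes Ces1a, Ces1b, Ces1c, Ces1e and Ces1g. The Ces1b promoters overlap and hold the same site, at −84 to −77 or −7 to 0 from the start. Of the Ces1 genes with a match, Ces1c, Ces1e and Ces1g had enough reads to be tested and none was called in any of the 5 comparisons. Ces1c and Ces1e had 66.5% and 60.0% of their summed CPM in high-fat tea 4. The other matches were in Ephx4 (−121 to −114), called higher with the high-fat diet, and in Ugt2b1 (−59 to −52). The members named by the rule, which did not take in Ephx4, held 0 matches in 36 promoters. The windows of 38 bases around the Ces1 sites are shown on the gene's strand, with the D-box in capitals.
Ces1a: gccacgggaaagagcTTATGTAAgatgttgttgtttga
Ces1b: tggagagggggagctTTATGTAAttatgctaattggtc
Ces1c: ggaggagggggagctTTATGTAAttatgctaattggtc
Ces1e: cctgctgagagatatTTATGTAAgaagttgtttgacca
Ces1g: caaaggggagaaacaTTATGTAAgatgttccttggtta

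Of the 16 members with over 50% of their summed CPM in high-fat tea 4, 6 were carboxylesterases, 5 glucuronosyltransferases and 3 sulfotransferases. Ugt2b38 reached 925.6 CPM in high-fat tea 4 and at most 1.17 CPM in the other high-fat tea libraries, and 44.0 CPM in chow water 2 and 14.5 CPM in chow tea 3, which also had kidney transcripts. Its changes were not called in any comparison (log2 8.72 with tea on the high-fat diet, SE 3.17, adjusted p = 0.108 by edgeR). Ugt1a7c was at 315.9 CPM in high-fat tea 4 and between 6.42 and 51.4 CPM in every other library. In that library Gsta2 stood at 121.7 CPM. Fmo2, Fmo4, Ces1f and Gstt2, called higher with tea on the high-fat diet, also had their highest value over all 20 libraries there.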

How the data were processed

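Poly-A RNA of white adipose tissue, extracted with TRIzol, was sequenced from a stranded Illumina kit, per the labels' protocols. Per the submitters' processing notes, the authors used fastp 0.23.2, HISAT2 2.2.1 and featureCounts 2.0.6. The deposited values are raw read counts per gene name on GENCODE annotation of GRCm39, per the file headers, while the processing notes name mm10. Per the file headers, reads were counted without strand and with the paired option but without counting fragments, so a pair can give 2 counts; between 68.1 and 72.2% of counts from 1 to 20 were even. Antisense and overlapping genes cannot be told apart in such counts, and 12 of the 116 members share over 20% of their exonic bases with another gene. Library totals ran from 53047057 to 93314761 reads. Among 40 pairs of replicates, the lowest chi-square per gene was 68.7, so none was a library deposited again.

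Counts were scaled by the TMM method (factors 0.587 to 1.20) and tested in edgeR 4.0.16 (R 4.3.3) with the quasi-likelihood F test on 4 group means over all 20 libraries. The filter on low values asked for about 10 counts, scaled to a library of median size, in 5 libraries, and for a total of 15, which left 21306 genes, and p-values were adjusted over all of them by Benjamini-Hochberg. Called means an adjusted p below 0.05. Standard errors were the log2 fold change divided by the square root of F. CPM refer to the scaled library size, and TPM were computed from the counts and the lengths in the files, which cover all exonic bases of a gene. DESeq2 1.42.0, limma 3.58.1 (voom), another scaling and filters, halved counts, fits of the compared groups, a replicate block and fits without libraries were alternatives. The procedure was tested on simulated data. Tables and plots were made with Python 3.11.15, pandas 2.3.3, numpy 2.4.6 and matplotlib 3.10.9.

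The values of 1 tested member are not reported here, though it is included in the counts and class sums. The members and lists were chosen with earlier results of these data known. Named were the member with the highest mean TPM of each of 15 name stems and every member called in any comparison with a mean of at least 1 CPM. Those with at least 5 CPM and groups without overlap, or among the 6 lowest p of a comparison, got their value in every library. Each library stands for 1 of the 5 mice of its group, per the series' design text, and p-values measure the spread between these mice. An identity between proteins was planned; the share of 50-base stretches that GENCODE transcripts have in common was used in its place.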

Additional observations from a re-analysis of the deposited data

Results flagged for a closer look

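Of 148 groups of 5 libraries, over the 37 named members, 35 had a library far from the other 4 by Dixon's test, where chance gives about 1 in 20. High-fat tea 4, with kidney transcripts, gave 13 of them, chow water 1, with pancreas transcripts, 12, and high-fat water 4, with epididymis or seminal vesicle transcripts, 4. The part of these organs was not tested.

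In high-fat tea 4 the values, in CPM, stood above the other high-fat tea libraries for Ugt2b38 (925.6), Ces1f (1120), Fmo2 (412.9), Ugt1a7c (315.9), Gsta2 (121.7), Gsta3 (97.49), Gstt1 (93.99), Fmo4 (33.54), Ugt2b34 (26.72), Aldh3b1 (21.81), Ces2e (13.94), Ces2a (2.501) and Ugt1a1 (1.513).

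In chow water 1 they stood above the other chow water libraries for Ces2e (470.6), Ugt2b34 (231.2), Gsto1 (227.2), Gstp1 (152.1), Ces2a (101.4), Gstm3 (61.11), Mgst2 (45.31), Gsta1 (39.25), Fmo4 (26.88), Ugt1a1 (25.51) and Sult2b1 (25.47). Ces1d was low there, at 902.6 CPM, against 2365 to 2953 CPM in the other 4.

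In high-fat water 4, Ces2e (2.309 CPM), Ugt2b38 (1.661 CPM) and Ces2a (0.4772 CPM) were high, and Mgst1 was low, at 476.9 CPM, against 667.8 to 718.0 CPM in the other 4. Gsta2 and Ugt2b38 were high in chow water 2 (34.23 and 43.96 CPM) and in chow tea 3 (7.969 and 14.54 CPM), both with kidney transcripts. Gstm1 was high in chow tea 4 (503.0 CPM), and Gstp1 stood apart in high-fat water 5 (68.03 CPM).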

How the results depend on the processing

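The number of members called with the high-fat diet in water-drinking mice was 25; it was 16 with limma voom, 16 with the replicate block and 16 without 9 libraries with transcripts of other organs, and 12 to 26 with any 1 library left out. With tea on the high-fat diet 8 were called, and 24 with DESeq2, 0 with only the groups compared in the fit, 0 without the 9 libraries, 7 with the replicate block, and 3 to 18 with any 1 library left out. For the replicate block the count over all genes is not shown, so its member counts have no background beside them. Of the comparisons with 0 members called, DESeq2 called 1 with tea on chow, 11 with high-fat in tea-drinking mice and 11 in the interaction; in tea-drinking mice limma voom called 1, the fit without 3 libraries 7, and leaving out 1 library 0 to 1. The change of Sult2b1 with diet reversed to 0.073 without 3 libraries, to 0.71 without 9 and to 0.14 without chow water 1 (range −4.87 to 0.14 with 1 library left out). For called genes of the regulator, cofactor and transporter lists, fits without libraries were chosen after seeing the data; the change of Abcb1b with diet reversed to −0.097 without 3 libraries and to −0.30 without 9. The causes were not tested.

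Over all genes, the tea count on the high-fat diet was 928, against 2444 with DESeq2, 408 without a filter, 1602 without 3 libraries, 21 with only the groups compared and 13 without 9. The diet count in water-drinking mice was 3232, against 2052 without 9 libraries. The diet count in tea-drinking mice was 38, against 935 with DESeq2, 292 without 3 libraries, 94 with a stricter filter, 73 with limma voom, 67 with halved counts, 19 without a filter, 5 without 9 libraries and 5 with only the groups compared. The tea count on chow was 5, against 260 with DESeq2 and 0 to 9 in the other fits. The interaction gave 14, against 692 with DESeq2, 44 without 3 libraries, 6 with limma voom, 4 without a filter and 0 without 9. With any 1 library left out the counts were 1890 to 3445 for diet in water-drinking mice, 212 to 2017 for tea on the high-fat diet, 10 to 390 for diet in tea-drinking mice and 3 to 111 for the interaction.

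Of 32 changes of named members, all kept direction and call with other size factors; 23 kept the call with limma voom and 22 with the replicate block, and over the fits without 1 library 238 kept it, 81 lost it and 1 reversed. Replicate numbers did not pair the mice: over 30 same-numbered pairs, deviations correlated at −0.27 to 0.475 (median 0.0133), 9 of them over 0.1, and 5 of 20 libraries correlated best with their own number.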
